A study of Mus musculus with 3 samples.

Results

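The genes described here are 10 histone demethylase and related genes that have been linked to hypoxia: Kdm3a, Kdm4a, Kdm4b, Kdm4c, Kdm2b, Kdm5a, Kdm5b, Kdm6a, Kdm6b and Jmjd6. They were taken by name, and all 10 were found among the 21779 nuclear protein-coding genes of the RefSeq annotation. Chromatin came from wild-type Black-Swiss mouse embryos whose hearts were taken at embryonic stage E12.5. It was examined by chromatin immunoprecipitation and sequencing with an antibody to HIF1α, the subunit of the hypoxia-inducible factor that is degraded when oxygen is plentiful. The 3 libraries were 2 HIF1α pulldown replicates and 1 input, which carries no antibody, and the labels name no treatment. The data are a single merged list, on mm10, of 17289 peaks, so each peak has a position and a score but no value per library, and no replicate error can be given. Whole hearts were used, so peaks come from a mixture of cell types, and a peak list does not measure expression, so the tissue was not checked against marker genes. A peak was assigned to a gene when its centre lay inside the gene or within 50 kb of either end.

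Many enzymes of the Jumonji C (JmjC) family remove methyl groups from histone lysines in a reaction that consumes molecular oxygen and 2-oxoglutarate and needs iron. Their activity can therefore fall when oxygen is scarce, and several of their genes are known targets of hypoxia-inducible factors in cultured cells. The family is usually grouped by the histone mark it erases, and that order is followed below. HIF1α and its partner ARNT recognise the core letters ACGTG or GCGTG.

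All 10 genes had at least 1 peak in their window, with 19 peaks in all and no peak shared between the genes. This count is read against a high background, since 64.8% of all protein-coding genes had a peak by the same rule. The 10 genes are also long, with a median length of 75.3 kb against 17.2 kb for all protein-coding genes. The median was 1 peak per gene in both sets. Pooled over windows the density was 1.09 peaks per 100 kb for the 10 genes, against 0.855 for all protein-coding genes, while the median density per gene was 0.637 against 0.797. Kdm6b carried 5 peaks, Kdm4a 4, and Kdm2b and Jmjd6 2 each, and the other 6 genes carried 1 each.

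The genes differed more in the kind of peak they carried. A peak name in the list ends in 1 or 2, read here as the number of calls merged into it, and peaks of 2 calls make up 11.5% of the list. Both pulldowns were compared with the same input, whose part in peaks of 2 calls was not tested. Of the 19 peaks, 7 (36.8%) were of 2 calls. They lay at 6 of the 10 genes, Kdm3a, Kdm4b, Kdm2b, Kdm5b, Kdm6b and Jmjd6, against 21.4% of all protein-coding genes. Kdm4a, Kdm4c, Kdm5a and Kdm6a had peaks of 1 call alone. The score is a whole number that starts at 2 in the deposited list, and its scale is not stated. The 7 peaks of 2 calls scored 4 to 50 with a median of 12, where the median over all peaks of 2 calls was 4. The 12 peaks of 1 call scored 2 to 6 with a median of 2.5, where the median over all peaks of 1 call was 2. A 2-call peak scoring at least 10 was found at 4 of the 10 genes (Kdm3a, Kdm5b, Kdm6b and Jmjd6), against 2.54% of all protein-coding genes.

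**Figure D1:**
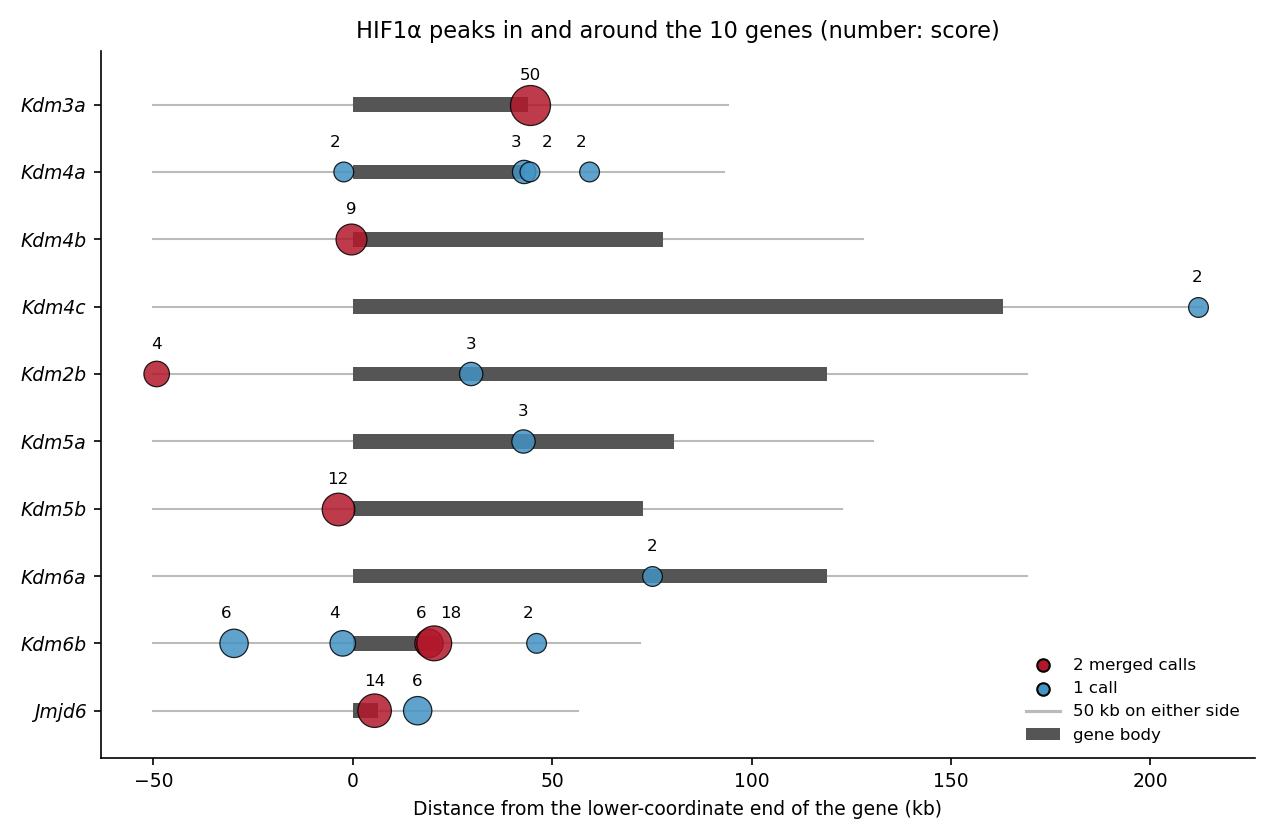
Position of each of the 19 peaks at the 10 genes, 1 gene per row, in kb from the lower-coordinate end of the gene. Dark bars are gene bodies, grey lines the 50 kb on either side, circles the peak centres (area grows with the log2 of the score printed above), red for 2 merged calls and blue for 1 call. Kdm3a, Kdm4b, Kdm5b, Kdm6b and Jmjd6 have a red circle at or close to an end of the gene, whereas Kdm4c has a single blue circle 48.4 kb away.

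Close to a gene end the division differed in part, since Kdm4a had a peak of 1 call there and Kdm2b had no peak of 2 calls there. A peak centre lay within 1 kb of an end at 4 of the 10 genes (Kdm4a, Kdm4b, Kdm3a and Jmjd6), against 16.2% of all protein-coding genes. With peaks of 2 calls alone the count was 3 of 10 (Kdm3a, Kdm4b and Jmjd6), against 5.54%. Within 5 kb of an end it was 5 of 10, with Kdm6b and Kdm5b added, against 7.72%. The remaining 5 genes had their nearest peak of 2 calls between 49.2 kb (Kdm2b) and 5120 kb (Kdm6a) from an end.

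Among the erasers of H3K9 methylation, Kdm3a had the strongest peak of all the genes described here. Kdm3a encodes a demethylase of mono- and dimethylated H3K9 and is a well known hypoxia-induced gene. The gene spans positions 71588970 to 71632990 of chromosome 6, and its only peak lay just beyond the upper end, at 71633387 to 71633498, 452 bp from that end. This peak of 2 calls had a score of 50, which placed it 27th by score among the 17289 peaks. Only 1.21% of peaks of 2 calls scored as high. The gene is read from the minus strand, so the peak lay upstream, 525 bp before the outermost start in the RefSeq promoter table. The promoter window of that start (chr6:71632868-71633167, minus strand, GRCm38.p6, 250 bases before the start to 50 after) is shown because it is the promoter nearest to this peak, with HIF core letters in capitals:
Kdm3a: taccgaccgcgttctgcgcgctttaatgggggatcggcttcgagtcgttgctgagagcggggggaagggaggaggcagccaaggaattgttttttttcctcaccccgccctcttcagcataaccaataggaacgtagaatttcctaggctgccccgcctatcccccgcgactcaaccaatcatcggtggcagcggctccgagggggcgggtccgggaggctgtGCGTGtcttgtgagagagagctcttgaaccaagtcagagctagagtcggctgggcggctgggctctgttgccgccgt

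The window held 1 GCGTG, beginning 27 bases before the start, and no ACGTG. The peak itself lay outside the window, so its own letters were not read. Of 21263 promoter windows of protein-coding genes, 49.3% held at least 1 ACGTG or GCGTG on either strand, so a single match is common. The other RefSeq windows of Kdm3a held none.

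The Kdm4 genes, whose products remove trimethylation from H3K9 and H3K36, had unlike peaks. Kdm4b, another gene known to respond to hypoxia, lies on chromosome 17 from 56325970 to 56403774. It had 1 peak, of 2 calls and with a score of 9 (56325512 to 56325641), and its centre lay 394 bp outside the lower end of the gene. A score this high was reached by 12.2% of peaks of 2 calls, and by 1.48% of the whole list. Of all protein-coding genes, 4.58% had a peak of 2 calls as close to an end. Kdm4b therefore resembled Kdm3a in having a lone peak of 2 calls within 1 kb of an end, at a lower score.

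Kdm4a, on chromosome 4 from 118136957 to 118180090, had 4 peaks, all of 1 call and with scores of 2 or 3. The nearest to an end, of score 3, was 185 bp within the upper end (118179855 to 118179955). Kdm4a is read from the minus strand, and this peak was 138 bp downstream of its RefSeq start. A peak of score 2 lay 1261 bp beyond the same end, and the remaining peaks, also of score 2, lay 2282 bp from the lower end and 16.2 kb beyond the upper end. The peak below the gene was inside the neighbouring St3gal3 and 297 bp from its end, and the farthest was closer to Ptprf. At least 4 peaks were found at 6.28% of protein-coding genes, but the list holds 9685 peaks at the lowest score of 2. The promoter window of Kdm4a (chr4:118179994-118180293, minus strand) is shown as the promoter nearest to this peak. The peak lay outside the window, so its own letters were not read, and the window held no core letters:
Kdm4a: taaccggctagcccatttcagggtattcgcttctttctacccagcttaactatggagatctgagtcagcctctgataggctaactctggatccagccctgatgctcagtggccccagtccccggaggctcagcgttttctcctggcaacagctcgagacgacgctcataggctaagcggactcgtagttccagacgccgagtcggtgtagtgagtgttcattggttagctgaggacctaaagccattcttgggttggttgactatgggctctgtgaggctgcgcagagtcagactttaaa

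Kdm4c, the longest of the genes at 163 kb (chromosome 4, 74242497 to 74405864), had its nearest peak farther from an end than any of the other genes. This single peak had the lowest score of 2, was of 1 call, and lay 48.4 kb beyond the upper end of the gene, close to the limit of the window. No peak centre lay inside the gene, and the nearest peak of 2 calls was 3830 kb away. The gene is read from the plus strand and has 2 windows in the promoter table. The inner one (chr4:74251629-74251928, plus strand) held more core letters than any other window of the genes described here, and is shown for that contrast:
Kdm4c: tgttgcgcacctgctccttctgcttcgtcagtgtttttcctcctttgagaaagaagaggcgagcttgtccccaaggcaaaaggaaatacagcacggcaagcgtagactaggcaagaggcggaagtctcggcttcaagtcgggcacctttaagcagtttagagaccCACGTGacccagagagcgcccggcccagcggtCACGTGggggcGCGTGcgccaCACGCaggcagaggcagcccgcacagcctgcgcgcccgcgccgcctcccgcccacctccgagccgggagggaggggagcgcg

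It held CACGTG at 2 places and GCGTG at 2 more. Read on both strands, each palindromic CACGTG counts as 2 matches of ACGTG, which gives 6 matches in all. CACGTG, which is also the E-box bound by other factors, was present in 7.84% of coding promoter windows. The nearest peak centre to this start was 101 kb away. The outer window of Kdm4c held no core letters.

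**Figure D2:**
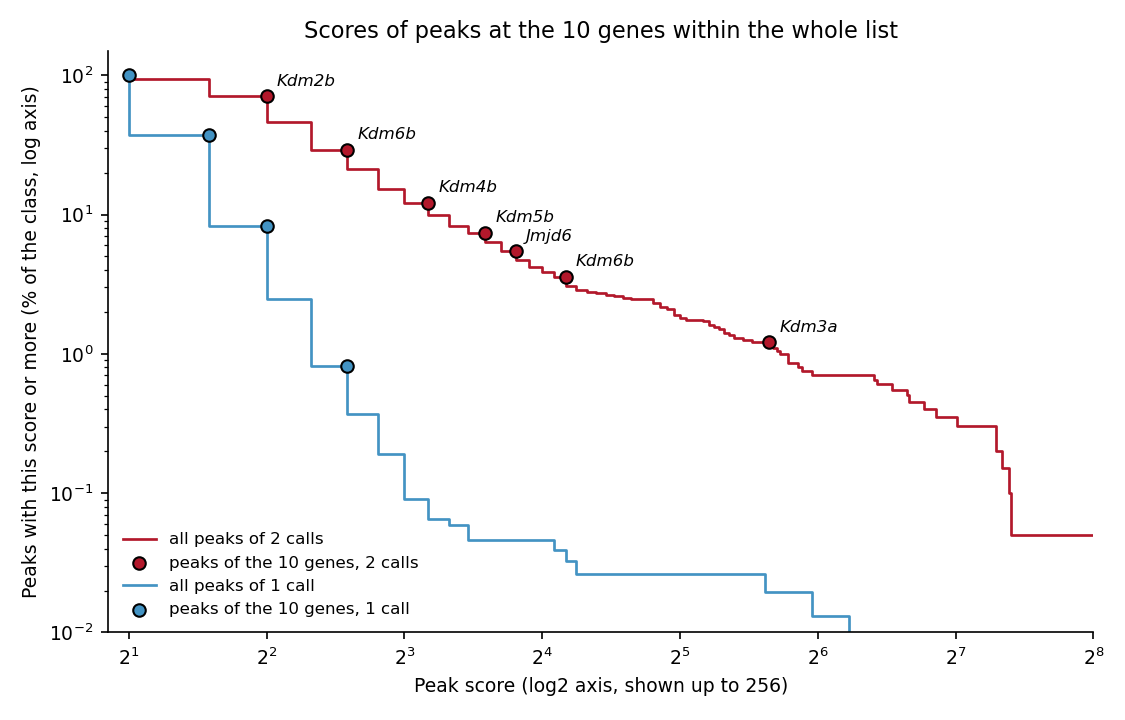
Share of peaks in the whole list that reach a given score (percent of the class, log axis, against score on a log2 axis), with the peaks of the 10 genes marked on the curve of their class. Red is for peaks of 2 calls and blue for peaks of 1 call. The marked red points run from Kdm2b (score 4) to Kdm3a (score 50), and the blue ones end at a score of 6.

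Kdm2b encodes a demethylase of H3K36 that also brings a Polycomb complex to CpG-rich DNA. It lies on chromosome 5 from 122870664 to 122989270, and its window held 2 peaks. The peak of 2 calls scored 4 but lay 49.2 kb below the gene, just within the limit, inside Anapc5, 867 bp from an end of that gene. The peak of 1 call scored 3 and lay inside Kdm2b (122900278 to 122900378), 29.7 kb from the nearest gene end. It nevertheless coincided with an internal RefSeq start. Kdm2b is read from the minus strand, and 2 of its 4 promoter windows have starts at 122900367 and 122900350, which were 39 and 22 bp from the peak centre. By distance to gene ends alone this peak would not have been placed at a promoter. The bases of both peaks that promoter windows cover are shown, since they are the only peaks in the Kdm2b window: 78 of the 101 bases of the inner peak (chr5:122900301-122900378, minus strand) and all 119 bases of the peak at Anapc5 (chr5:122821413-122821531, minus strand), with core letters in capitals:
Kdm2b inner peak: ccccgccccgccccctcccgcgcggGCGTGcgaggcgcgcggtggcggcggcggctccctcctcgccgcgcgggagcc
Anapc5 peak: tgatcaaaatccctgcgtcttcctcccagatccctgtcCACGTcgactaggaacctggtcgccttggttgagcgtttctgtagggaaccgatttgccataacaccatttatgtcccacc

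The bases shown held 1 core match each, GCGTG in the Kdm2b peak and ACGTG, on the opposite strand, in the Anapc5 peak. Across the whole list, 450 peaks of 2 calls lay wholly within a promoter window, and 66.9% of them held ACGTG or GCGTG. The share was 41.5% of 821 peaks of 1 call, and 84.0% of the 50 2-call peaks scoring at least 10. In the middle 101 bases of coding promoter windows the share was 23.0%, although peaks of 2 calls can be wider, up to 201 bp. Those middle bases all lie before the start, whereas peaks could lie anywhere in a window. The windows that held peaks were also not limited to protein-coding genes, so the shares are not matched. The windows at the inner start of Kdm2b are 79.7% and 81.7% G or C, against a median of 56.3% over coding promoters. The part of base composition in these matches was not tested. The windows at the outer starts of Kdm2b each held 1 GCGTG, and their nearest peak centres were 69.1 and 69.7 kb away.

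The Kdm5 genes encode demethylases of H3K4, and KDM5A is known in human cells as an oxygen-sensitive enzyme. Kdm5b, on chromosome 1 from 134560178 to 134632878, had a lone 2-call peak scoring 12 (134556355 to 134556474). Its centre lay 3764 bp upstream of the start, which for this plus-strand gene is the lower end. The position is inside the annotated span of the neighbour Mgat4e, but Kdm5b had the closest coding gene end. Of all protein-coding genes, 7.17% had a peak of 2 calls as close. The Kdm5b promoter window, which the peak did not reach, held 1 ACGTG and 1 GCGTG. Kdm5a, on chromosome 6 from 120364099 to 120444574, had a lone 1-call peak scoring 3, deep inside the gene and 37.7 kb from its upper end. Its nearest peak of 2 calls was 1860 kb away.

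The Kdm6 genes, which encode erasers of H3K27 methylation, differed in number and kind of peaks. Kdm6b, an inducible gene on chromosome 11 (69398508 to 69420367), had 5 peaks in a window of 122 kb, or 4.10 per 100 kb. Only 2.63% of protein-coding genes had as many peaks, and 1.25% as high a density. Its pair of peaks of 2 calls lay inside the gene near the upper end. The stronger scored 18, 1455 bp from that end (69418862 to 69418963), and the weaker scored 6, 2756 bp from it (69417544 to 69417678). A score of 18 was reached by 3.57% of peaks of 2 calls. The other 3 peaks were of 1 call and lay within the spans of neighbouring genes. They scored 6 inside Chd3, 4 inside Naa38, 181 bp from its end, and 2 inside Dnah2.

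Kdm6a, an X-linked gene from 18160862 to 18279936, had a lone 1-call peak at the lowest score of 2, inside the gene and 44.0 kb from its upper end. It was 73.4 kb downstream of the RefSeq start. No peak of 2 calls lay nearer than 5120 kb, a distance that 97.7% of protein-coding genes did not exceed. As at Kdm4c, the promoter window (chrX:18162325-18162624, plus strand) held CACGTG and no peak lay near it, and it is shown for that reason:
Kdm6a: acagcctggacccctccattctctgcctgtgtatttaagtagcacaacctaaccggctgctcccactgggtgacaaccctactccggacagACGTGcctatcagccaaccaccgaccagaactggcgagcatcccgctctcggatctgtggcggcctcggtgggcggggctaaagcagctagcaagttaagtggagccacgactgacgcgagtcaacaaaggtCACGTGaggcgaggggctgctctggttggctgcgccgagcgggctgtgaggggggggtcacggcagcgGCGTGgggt

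Its CACGTG began 27 bases before the start, a further ACGTG began 159 bases before it, and a GCGTG lay after the start.

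Jmjd6 encodes a JmjC protein that is best known as a lysyl hydroxylase of RNA-splicing proteins, and a role as a histone arginine demethylase has also been described. It is the shortest of the genes at 6.34 kb (chromosome 11, 116837432 to 116843767) and had 2 peaks. The peak of 2 calls scored 14 (116842837 to 116842945), a score reached by 5.48% of peaks of 2 calls. It lay inside Jmjd6, 876 bp from the upper end and 558 bp downstream of the RefSeq start on the minus strand. Mettl23 overlaps this end of Jmjd6, and the peak was slightly closer to the end of that gene, at 624 bp, so proximity does not assign it to either gene alone. The peak of 1 call scored 6, lay 9913 bp beyond the gene and was 5 bp from an end of Srsf2, a splicing factor gene, and inside Mfsd11. A promoter window of Mfsd11 covers all 101 bases of this peak, which held 1 GCGTG. Among peaks of 1 call, 0.817% scored 6 or more. The Jmjd6 promoter window (chr11:116843400-116843699, minus strand) is shown because the peak of 2 calls lay next to it:
Jmjd6: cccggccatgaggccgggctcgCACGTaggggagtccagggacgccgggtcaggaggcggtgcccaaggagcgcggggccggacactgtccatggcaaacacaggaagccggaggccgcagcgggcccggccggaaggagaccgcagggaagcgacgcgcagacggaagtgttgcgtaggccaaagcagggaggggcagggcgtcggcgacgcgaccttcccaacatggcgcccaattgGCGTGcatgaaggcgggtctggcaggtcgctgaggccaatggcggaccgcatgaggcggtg

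It held 1 ACGTG on the opposite strand, beginning 228 bases before the start, and 1 GCGTG beginning 11 bases before it.

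Kdm4b, Kdm5a and Kdm6b had no promoter window in the table, although Kdm4b and Kdm6b had peaks of 2 calls within 5 kb of an end. Of the 7 genes with a promoter window in the table, 6 held ACGTG or GCGTG in at least 1 window, and 4 held ACGTG. Over all protein-coding genes with a window, these shares were 52.3% and 23.2%. A gene with more windows has more chances of a match. Kdm2b, Kdm3a and Kdm4c had 4, 3 and 2 windows, where 17492 protein-coding genes had 21263 windows in all. These are the letters of promoter windows, and most of the 19 peaks lay outside any window, so the bases under them were not read. The 3 peaks of which bases could be read, the inner peak of Kdm2b, the one at Anapc5 and the one at Srsf2 and Mfsd11, each held 1 core match. The Kdm4c and Kdm6a windows held 6 and 4 matches with each palindromic CACGTG counted on both strands, and 2 each with CACGTG left out, against 3 in the inner Kdm2b windows. The starts of Kdm4c were at least 91.1 kb from any peak, and that of Kdm6a 73.4 kb.

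**Figure D3:**
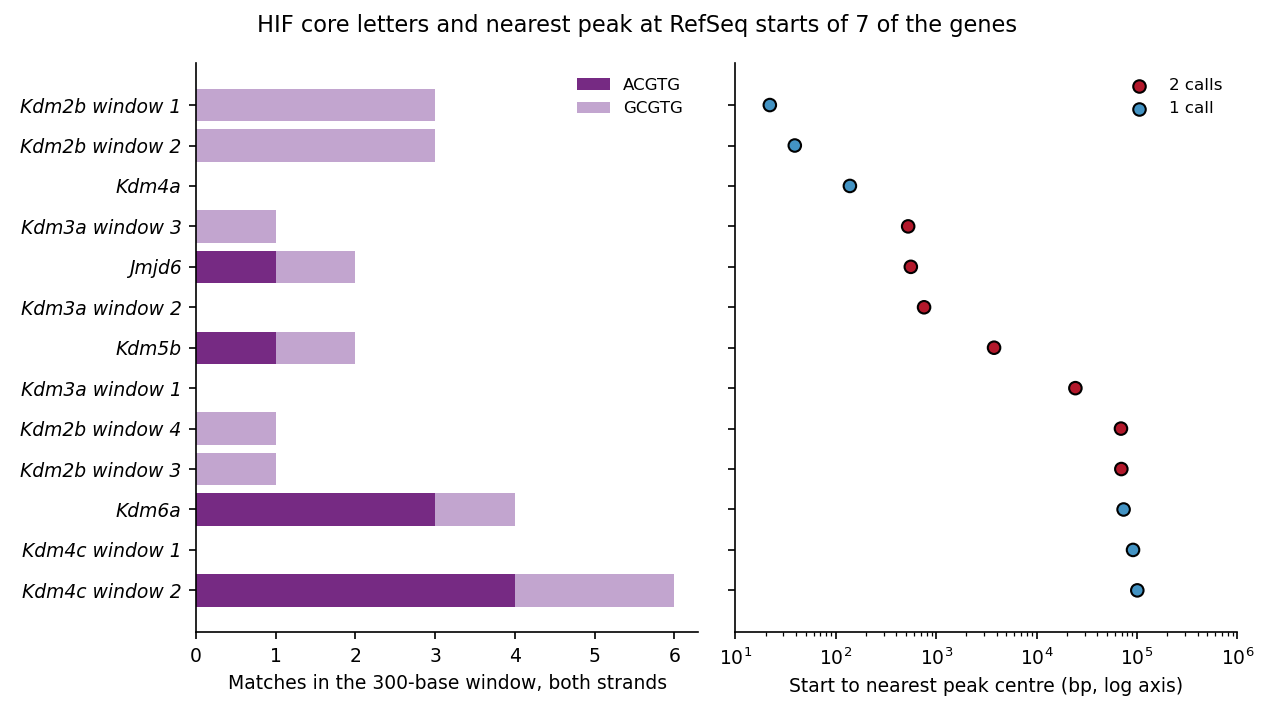
Left, number of ACGTG (dark) and GCGTG (light) matches on both strands in each 300-base RefSeq promoter window of 7 of the genes. Kdm4b, Kdm5a and Kdm6b have no such window and are not shown. Right, distance from the start of that window to the nearest peak centre (bp, log axis), red for 2 calls and blue for 1 call. Windows run down the page from nearest to farthest peak, and the windows with 4 and 6 matches, of Kdm6a and Kdm4c, are among the 3 farthest.

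Not all peaks in a window belonged to the gene for which they were counted. For 8 of the 19 peaks another protein-coding gene had the nearer end. Peaks just within the limit of 50 kb were the ones at Kdm4c (48.4 kb) and Kdm2b (49.2 kb), and the first beyond it was a 1-call peak scoring 3, 58.0 kb from Kdm6b.

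Other genes of the same enzyme class were described from 2 lists. A peak lay within 1 kb of an end at 4 of the 10 genes above (40.0%), and at 8 of 23 other JmjC and histone demethylase genes (34.8%). Over all protein-coding genes the share was 16.2%, and 5.54% with peaks of 2 calls. With peaks of 2 calls the counts were 3 of 10 and 2 of 23. In the list of 23, these were Jarid2, which encodes a catalytically inactive JmjC protein of Polycomb complexes (score 10 at 136 bp), and Phf8, which encodes an eraser of methylated H3K9 (score 4 at 118 bp). The closest peaks of 1 call were at Riox1 (4 bp, score 3), Kdm1a (44 bp, score 4), Kdm8 (68 bp, score 3) and Kdm5c (77 bp, score 5). Kdm1a encodes LSD1, which uses a flavin cofactor and is not a JmjC enzyme. Kdm5c is X-linked like Kdm6a, whose nearest peak was 44.0 kb from an end.

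The TET and AlkB genes encode dioxygenases of the same chemistry, many of which act on DNA or RNA. Of 12 such genes, 7 (58.3%) had a peak within 1 kb of an end, against 16.2% of all protein-coding genes. A peak of 2 calls lay there at 3 of the 12, against 5.54%. Alkbh5, an eraser of N6-methyladenosine in RNA, had a 2-call peak scoring 31 at 428 bp, the highest score after that of Kdm3a among the nearest peaks of the genes in these lists. Tet2, an oxidase of 5-methylcytosine, had one of score 15 at 739 bp, and Tet3 one of score 5 at 965 bp. Peaks of 1 call lay closest at Alkbh4 (24 bp, score 2), Alkbh3 (50 bp, score 5), Fto (55 bp, score 3) and Alkbh7 (239 bp, score 2). The end of Rpgrip1l was the nearest to the peak counted for Fto. No test was made between these lists and the 10 genes, since members were chosen by name with earlier results of these data known.

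**Figure D4:**
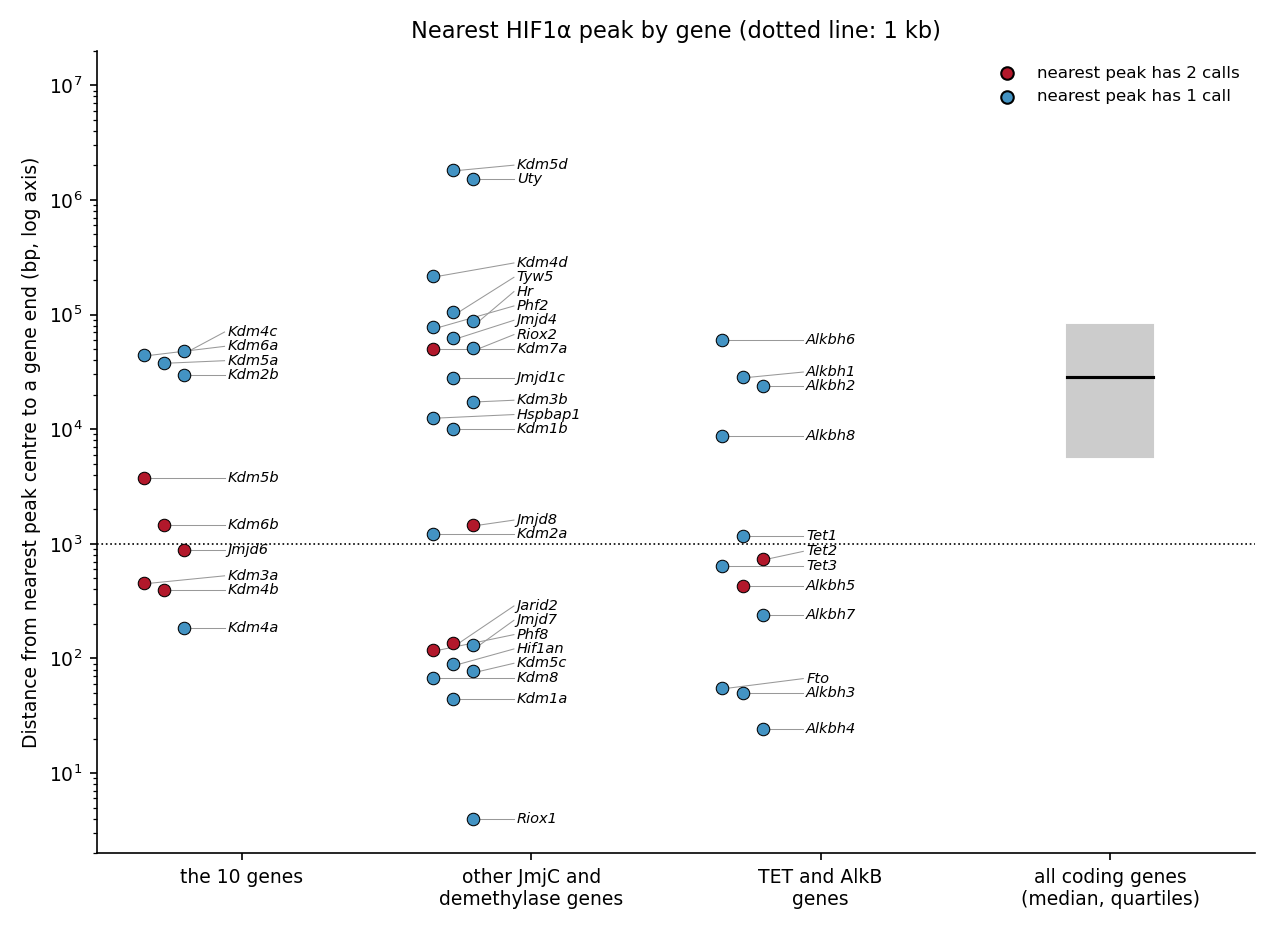
Distance from the nearest peak centre to either end of each gene (bp, log axis) for the 10 genes, the 23 other JmjC and demethylase genes, the 12 TET and AlkB genes, and all protein-coding genes (line at the median, box over the quartiles). Points are genes, red where the nearest peak has 2 calls and blue where it has 1, and small sideways shifts only separate points. The 10 genes have a median of 2.61 kb, against 28.3 kb for all protein-coding genes. The median of the 23 other JmjC and demethylase genes lies between these values. That of the 12 TET and AlkB genes is smaller than both, at 0.692 kb. The 10 genes are spread widely, and Kdm2b, Kdm5a, Kdm6a and Kdm4c, at 29.7 to 48.4 kb, lie beyond the median of all protein-coding genes.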

How the data were processed

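HIF1α pulldown and input libraries were processed with Bowtie2 and HOMER on mm10, per the submitters' processing notes; no version, threshold or merging rule is stated there. Per the file headers, the deposited list merges the peaks that either pulldown gave over the shared input. Its values are a score per peak, deposited by the authors without a stated scale and used only within the list. The header names 10 columns and the rows hold 6. The pulldown behind a single call is not marked, and read depth is unknown. The labels do not say whether the replicates are separate pools of hearts.

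Gene positions and promoter windows came from RefSeq GRCm38.p6, the build of mm10. Genes placed under 3 Mb, except on chromosome Y, were not used. The gene table has no strand, so distances run from the peak centre to either gene end, and starts were used for 7 of the 10 genes. Exons, introns and UTRs were not resolved. Counting was done with pandas 2.3.3 and tested on simulated data. Members and lists were chosen with earlier results of these data known, so no test was made and shares are set beside those of all protein-coding genes. From the lists of related genes, those with a peak of 2 calls within 1 kb and the 4 nearest to a peak are named. Alternatives covered window, distance, score, calls, overlap, nearest gene and motif.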

Additional observations from a re-analysis of the deposited data

How the results depend on the processing

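Counts for the 10 genes depended on the window, on which peaks were admitted and on how peaks were assigned to genes. Genes with a peak numbered 10, and 6 with peaks inside genes alone, with scores of at least 4 or with peaks of 2 calls. Of all protein-coding genes, 64.8% had a peak in the window, 21.1% one inside the gene and 21.4% one of 2 calls. The share at scores of at least 4 was not computed. The 19 peaks became 7 inside genes, 10 at scores of at least 4, 7 of 2 calls, and 11 when a peak counted only for the nearest coding gene. In that last count a gene that holds a peak was taken as the nearest. Kdm5b then lost its only peak, which lies inside Mgat4e, and 9 genes kept a peak. At a window of 100 kb there were 27 peaks, and the median peaks per gene became 2. Genes with a peak at an end numbered 3 to 6 under every alternative tried, around the 4 reported. The count was 6 within 5 kb, against 24.0% of all protein-coding genes, and 3 with peaks of 2 calls, against 5.54%. For the other distances and the score limits that share was not computed. With RefSeq starts alone the count was again 4, but Kdm2b stood in place of Kdm4b, which has no promoter window. Other JmjC and demethylase genes at an end fell to 4 at scores of at least 4 and to 2 with peaks of 2 calls, and TET and AlkB genes to 4 and 3. Of the 7 genes with a promoter window, 2 (Kdm3a and Jmjd6) had both core letters and a peak at an end, and 1 (Jmjd6) with ACGTG alone. The share of all protein-coding genes with both was not computed, so nothing is read from this count. Of 90 counts for single genes, 52 stayed within 1.5 times the reported count and 38 did not. Neither pulldown could be left out, since calls are not marked by replicate, and peaks of 2 calls stood in. No paired analysis was possible because the list holds no value per library. Without read counts, no interval or limit on an absent peak can be given.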
